A study of Homo sapiens with 8 samples.

Results

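The G2, mitosis and spindle genes measured here were 50 genes that drive cells from late G2 through chromosome segregation to cytokinesis. The members were every probe set of the array whose only gene symbol in the annotation was one of the 50 names. All 50 genes were measured, by 101 probe sets of 54675, among 19775 genes with a symbol of their own. They were ordered into 11 roles, from the cyclin-CDK1 switch to the condensins. RPMI-8226 and JJN3, both established human multiple myeloma lines, that is, malignant plasma cells grown in culture, were each profiled under 4 treatments with 1 array apiece. The treatments were no lentivirus (uninfected), a lentivirus with a non-targeted (NT) shRNA, one with an shRNA against XBP1, and one with an shRNA against IRE1, the kinase and RNase encoded by ERN1. Infected cells were exposed to virus for 16 h with 8 µg/mL polybrene, and cells were harvested at 96 h. A treatment therefore had 2 arrays, 1 in each line, and the lines served as its replicates (n = 2). The labels name no separate cultures within a line, so every p-value measures the spread between these arrays of 2 lines. The design asks what follows when the IRE1-XBP1 branch of the unfolded protein response is silenced, with the uninfected cells as the control for the response to virus.

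Entry into mitosis is set by cyclin B bound to CDK1, which CDC25 phosphatases switch on. The transcription factors FOXM1 and MYBL2 (B-Myb) help to drive the late cell cycle genes, and the DREAM and MuvB complexes repress or activate many of them through a short promoter element called the CHR, often beside CCAAT boxes bound by NF-Y. Polo-like and Aurora kinases, kinesins and microtubule-binding proteins build the spindle. The checkpoint proteins hold back the anaphase-promoting complex (APC/C) until every kinetochore is attached, and the APC/C then destroys cyclins and securin. In bulk RNA these genes are read together as a sign of how many cells are in late cell cycle. Here, fewer cells in G2 and mitosis and less RNA per cell cannot be told apart.

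The deposited values were log2 signals centred so that each probe set had a median of 0 over the 8 arrays. They give differences between arrays and no expression level, so no gene's level can be set against another's, and the presence of plasma cell markers could not be checked. The number of arrays limits the precision. XBP1 stood at 0.19, 0.02, -0.58 and -0.60 in RPMI-8226 and at 1.02, 1.11, -0.02 and -1.47 in JJN3, in the order uninfected, NT, XBP1 and IRE1 shRNA. ERN1 stood at 2.75, 1.73, 0.29 and 2.11 in RPMI-8226 and at -0.29, -0.35, -1.57 and -1.24 in JJN3 in the same order. XBP1 was below NT on both XBP1 arrays, but it was lowest on the IRE1 array of each line, and ERN1 was lowest on the XBP1 array of each line. The RPMI-8226 array labelled IRE1 shRNA was above its NT array for ERN1. By these values neither target was lowest on the arrays labelled for it. Each of the genes was read from 1 probe set, that of highest SD, and no other probe set of them was examined. Every direction below that names XBP1 or IRE1 shRNA, the difference between them included, rests on the labels of these 4 arrays. The median of the 24 poly-A spike probe sets was highest on the XBP1 shRNA array of each line, at 0.43 in RPMI-8226 and 0.19 in JJN3. It was 0.25 and -0.05 on the NT arrays. The 18 hybridisation control probe sets were highest on the JJN3 IRE1 shRNA array, with a median of 0.42. The part of these control signals in the results was not tested.

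Promoter sequences were taken from RefSeq (assembly GRCh38.p14) for members that passed the test in an shRNA comparison below or lay furthest above NT shRNA. The table held 43 of the 50 members. AURKA, BIRC5, BUB3, FOXM1, TPX2, TTK and UBE2C were not among them. Each run gives the 200 bases before the annotated start, 5′ to 3′ on the gene's strand, with capitals marking matches on either strand to the CHR (TTTGAA) and to the NF-Y box (CCAAT). In MKI67 the CHR nearest the start shares a base with an NF-Y box. In CDCA3 the CHR begins 3 bases before the start, so only its first letters are shown. The first pair passed the test in an shRNA comparison, CDC25B at chr20:3786751-3786950 on the plus strand and MYBL2 at chr20:43666914-43667113 on the plus strand.
CDC25B: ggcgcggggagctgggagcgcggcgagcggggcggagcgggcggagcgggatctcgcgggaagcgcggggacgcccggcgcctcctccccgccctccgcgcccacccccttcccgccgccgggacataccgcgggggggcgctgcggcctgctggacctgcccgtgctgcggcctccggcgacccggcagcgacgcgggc
MYBL2: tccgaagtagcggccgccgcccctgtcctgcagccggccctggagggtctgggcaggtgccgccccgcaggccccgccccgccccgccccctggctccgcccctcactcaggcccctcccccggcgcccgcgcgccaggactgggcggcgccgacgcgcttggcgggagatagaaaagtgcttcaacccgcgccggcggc
The next set had the largest positive differences against NT shRNA, with XBP1 or IRE1 shRNA, among members that passed in no shRNA comparison. These are MKI67 at chr10:128126424-128126623 (minus), KIF20A at chr5:138178912-138179111 (plus), CDCA3 at chr12:6851287-6851486 (minus), TOP2A at chr17:40417897-40418096 (minus) and CKAP2 at chr13:52455788-52455987 (plus).
MKI67: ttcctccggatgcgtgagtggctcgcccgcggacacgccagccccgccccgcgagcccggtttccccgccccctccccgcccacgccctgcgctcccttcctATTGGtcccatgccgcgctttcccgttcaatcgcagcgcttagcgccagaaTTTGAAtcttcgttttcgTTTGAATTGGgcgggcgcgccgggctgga
KIF20A: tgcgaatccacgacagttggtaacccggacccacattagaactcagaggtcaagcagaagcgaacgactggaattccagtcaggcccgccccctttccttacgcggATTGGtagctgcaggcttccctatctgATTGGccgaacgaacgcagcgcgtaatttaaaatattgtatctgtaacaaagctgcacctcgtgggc
CDCA3: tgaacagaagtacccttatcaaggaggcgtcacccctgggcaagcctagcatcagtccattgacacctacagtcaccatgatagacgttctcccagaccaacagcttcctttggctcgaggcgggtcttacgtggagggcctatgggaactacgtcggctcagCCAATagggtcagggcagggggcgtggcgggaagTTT
TOP2A: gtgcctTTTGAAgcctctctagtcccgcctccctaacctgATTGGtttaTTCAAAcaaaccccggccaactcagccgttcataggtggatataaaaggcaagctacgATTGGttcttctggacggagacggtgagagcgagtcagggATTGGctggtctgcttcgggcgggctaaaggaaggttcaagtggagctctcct
CKAP2: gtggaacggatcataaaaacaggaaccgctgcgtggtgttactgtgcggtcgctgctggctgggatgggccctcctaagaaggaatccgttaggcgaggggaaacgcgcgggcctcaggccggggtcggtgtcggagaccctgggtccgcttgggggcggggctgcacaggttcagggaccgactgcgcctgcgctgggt
The windows of CDC25B, MYBL2 and CKAP2 held neither motif, KIF20A held 2 NF-Y boxes without a CHR, and MKI67, CDCA3 and TOP2A held both.

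Over the window from 250 bases before to 50 after the start, the CHR TTTGAA, searched on both strands, was found in 29 of the 43 member promoters (67.4%) and in 11.9% of 15384 promoters. With its variant TTCGAA the count was 30 of 43 (69.8%) against 13.3%. Within 100 bases before to 50 after the start, a CHR or variant stood in 27 of 43 (62.8%) against 5.37%. The NF-Y box was found in 30 of 43 (69.8%) against 36.1%, and a CHR or variant together with an NF-Y box in 23 of 43 (53.5%) against 5.43%. Among 45 DNA replication genes 4.44% had a CHR or variant, and among 83 other mitosis genes 51.8% did. The letters TGACGTGG, reported as an XBP1 site, were found in 0 of the 43 member windows and in 0.962% of all. The ER stress element was likewise found in 0 of 43 and in 0.104% of all; its pattern includes a CCAAT box. A match is a description of letters and not a bound site.

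In cells with XBP1 shRNA, 1 mitosis gene passed the test against NT shRNA, and most of the others lay above it without passing. CDC25B, the phosphatase that activates CDK1 at the G2 to M transition, fell by 0.84 ± 0.17 on the log2 scale (SE, n = 2 lines, limma adjusted p = 0.0419 over all genes). Its values were -0.15, 0.04, -0.98 and -0.04 in RPMI-8226 and 0.25, 0.31, -0.35 and 0.67 in JJN3, for uninfected, NT, XBP1 and IRE1 shRNA. In each line the XBP1 array was the lowest of the 4, 1.02 below NT in RPMI-8226 and 0.66 below it in JJN3. Over all 19775 genes, 2.2% passed, so 1 of 50 is close to the background. At an unadjusted p below 0.05, 22 of the 50 members stood out, 19 higher and 3 lower, where 15.8% of all genes did. The median member was 0.32 higher, 39 of 50 were positive, while 49.9% of all genes were positive. The count of calls rests on single arrays: leaving out any 1 of the 8 arrays removed the CDC25B call.

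The shift was mostly that of RPMI-8226, where the median member was 0.54 higher with XBP1 than with NT shRNA and 42 of 50 were positive. In JJN3 the median was 0.05 and 28 of 50 were positive. Without the RPMI-8226 XBP1 array the median over the fit was 0.10, without the RPMI-8226 NT array 0.16, and without the JJN3 XBP1 array 0.53. Set against the uninfected arrays in place of NT shRNA, the XBP1 shRNA median was 0.17, with 37 of 50 positive. In that setting BUB3 and MYBL2 passed the test (fell by 0.73, adjusted p = 0.0341, and by 1.06, adjusted p = 0.0249) and CDC25B did not remain past the threshold.

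**Figure D1:**
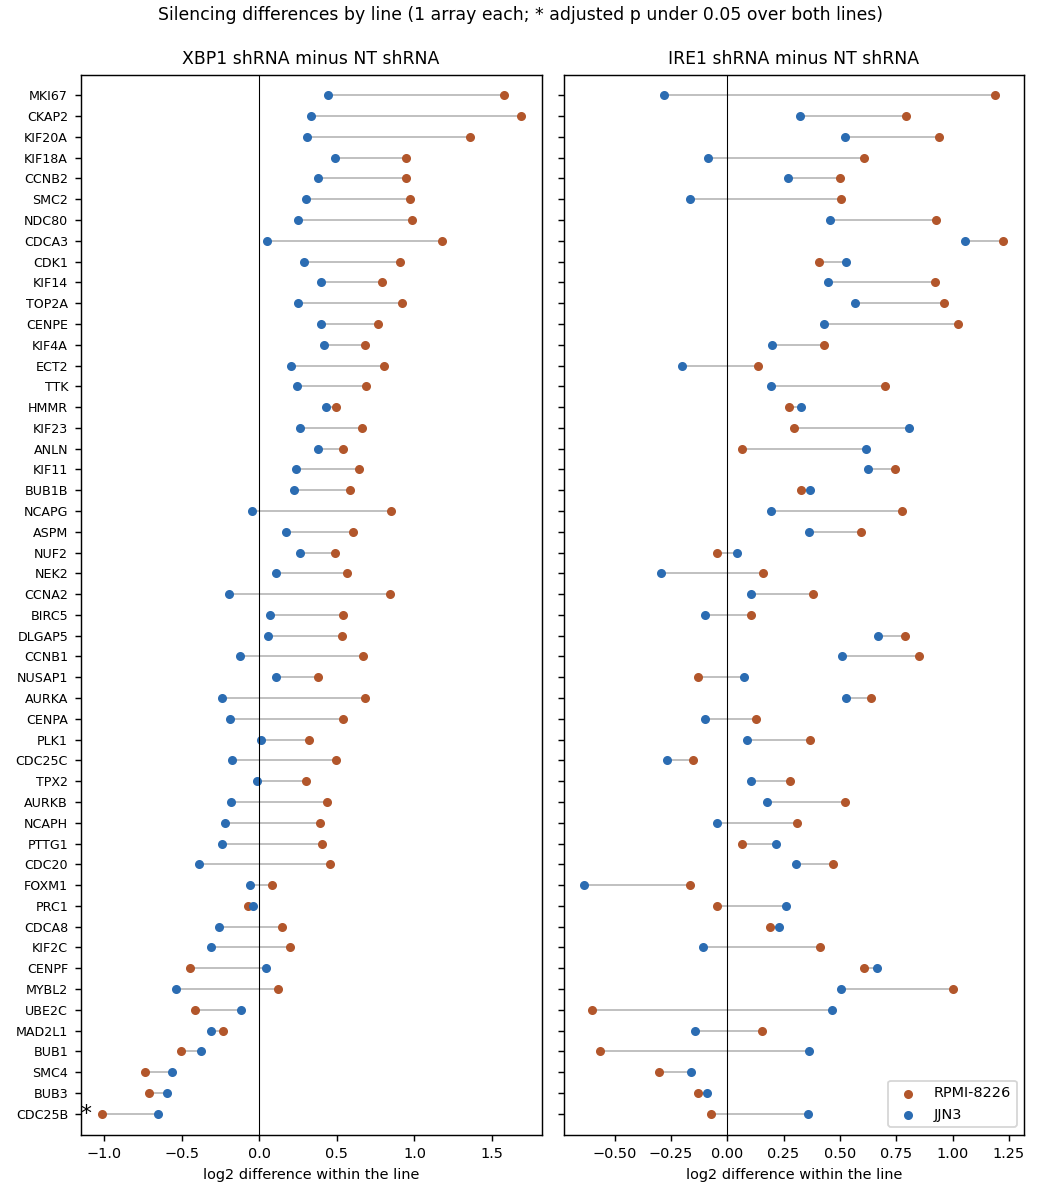
Log2 difference of each of the 50 members within a line, XBP1 shRNA minus NT shRNA on the left and IRE1 shRNA minus NT shRNA on the right; each point is 1 array minus 1 array, and genes are ordered by the fitted XBP1 difference. The panels share the NT arrays. In the left panel most RPMI-8226 points lie to the right of the JJN3 points (medians 0.54 and 0.05), and CDC25B, BUB3 and SMC4 lie below 0 in both lines.

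With IRE1 shRNA, 0 of 50 members passed the test against NT shRNA, where 0.0607% of all genes (12) did. The lowest adjusted p among members was 0.166, for CDCA3. At an unadjusted p below 0.05, 16 members stood out, 15 higher and 1 lower (FOXM1), where 10.6% of all genes did. The median member was 0.31 higher (0.39 in RPMI-8226 and 0.25 in JJN3), and 40 of 50 were positive against 50.0% of all genes. CDCA3, a trigger of mitotic entry that is degraded through the APC/C, was 1.14 ± 0.25 higher, by 1.23 in RPMI-8226 and 1.06 in JJN3. TOP2A followed at 0.77 ± 0.27 and MYBL2 at 0.75 ± 0.19. The lowest were FOXM1 (-0.40 ± 0.17), SMC4 (-0.23 ± 0.16) and CDC25C (-0.21 ± 0.25). For SMC4 the other 2 probe sets gave 0.48 and 0.54, and for CDC25C 0.17 and 0.26, so both signs rest on the probe set used. Leaving out either XBP1 shRNA array gave the same fit for this comparison, since the remaining one is then fitted exactly. CDCA3 stayed at 1.14 in it. The median was 0.19 without the RPMI-8226 NT array and 0.42 without the JJN3 NT array. Set against uninfected cells it was 0.24.

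The silencing constructs differed from each other in 2 members, both higher with IRE1 than with XBP1 shRNA. Over all genes 3.32% passed, so 2 of 50 is close to the background. CDC25B was higher by 0.98 ± 0.17 (limma adjusted p = 0.0192), by 0.94 in RPMI-8226 and 1.01 in JJN3. MYBL2, the B-Myb factor of the MuvB complex, was higher by 0.96 ± 0.19 (limma adjusted p = 0.0331), by 0.88 and 1.04. MYBL2 stood at -0.05, -0.97, -0.85 and 0.03 in RPMI-8226 and at 1.30, 0.50, -0.03 and 1.01 in JJN3, so within each line both the NT and the XBP1 array were below the uninfected and the IRE1 array. At an unadjusted p below 0.05 there were 11 members, 6 higher and 5 lower, where 15.9% of all genes stood out. CENPF, a kinetochore protein of G2 and M, was next at 0.84 ± 0.24 (adjusted p = 0.0978), and BUB3 followed at 0.55 ± 0.15 (0.0838). The other 2 CENPF probe sets gave -0.21 and 0.21. At the other end were MKI67 (-0.56 ± 0.30), ECT2 (-0.54 ± 0.19) and SMC2 (-0.47 ± 0.20). The median member differed by 0.07, at -0.07 in RPMI-8226 and 0.21 in JJN3, and it was -0.13 without the JJN3 XBP1 array. Without either IRE1 array no member passed (0 of 50). Without either uninfected array or without the JJN3 XBP1 array 1 did, CDC25B. Without the RPMI-8226 XBP1 array 2 did, MYBL2 and CDCA3 (1.01, adjusted p = 0.0416), while CDC25B had an adjusted p of 0.0696.

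Lentivirus with NT shRNA set against no virus moved 0 of 50 members past the threshold, as it did 0 of all genes (0%). At an unadjusted p below 0.05, limma counted 5 members, 1 higher and 4 lower, where 5.89% of all genes stood out. MYBL2 had the lowest difference (-0.86 ± 0.19, adjusted p = 0.818), at -0.92 in RPMI-8226 and -0.79 in JJN3. CDCA3 (-0.57 ± 0.25) and NDC80 (-0.47 ± 0.19) came next. SMC4 (0.50 ± 0.16), BUB1 (0.49 ± 0.23) and NUSAP1 (0.32 ± 0.22) were the highest by the probe sets used. The other probe sets gave -0.34 and -0.13 for SMC4, -0.05 to 0.20 for BUB1 and -0.02 for NUSAP1. The median was -0.08 with 17 of 50 positive, against 51.8% of all genes positive. It was 0.0012 without the RPMI-8226 NT array and -0.23 without the JJN3 NT array. In the fit all 7 kinesins were below the uninfected cells (median -0.28), from -0.38 to -0.01, and none of the 7 passed. In both lines 6 of them were below. KIF23 was 0.35 above the uninfected array in RPMI-8226 by the probe set used, where its other probe set gave -1.05. In JJN3 both gave -0.37.

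Both shRNA arrays of a line set against both control arrays gave 0 members past the threshold, and 0% of all genes. At an unadjusted p below 0.05, limma counted 19 members, 18 higher and 1 lower, where 10.1% of all genes stood out. The median member was 0.28 higher with silencing, 0.39 in RPMI-8226 and 0.15 in JJN3, and 40 of 50 were positive. MKI67 (0.62 ± 0.24), KIF20A (0.59 ± 0.18) and CDCA3 (0.59 ± 0.25) were the highest. BUB3 (-0.42 ± 0.16), CDC25B (-0.28 ± 0.25) and FOXM1 (-0.28 ± 0.15) were the lowest. The test of the difference between the lines called 0 members and 0% of all genes, with a lowest adjusted p among members of 0.991. In it the unlike shRNAs, and the unlike controls, stand as replicates of a line. At an unadjusted p below 0.05 limma counted 2 members, MKI67 (-0.96 ± 0.40) and CCNA2 (-0.73 ± 0.27), where 4.77% of all genes stood out. CKAP2 (-0.88 ± 0.41) was also among the lowest. CENPF (0.58 ± 0.51), UBE2C (0.58 ± 0.29) and BUB1 (0.47 ± 0.40) were the highest. The median member differed by -0.32, with silencing in JJN3 below silencing in RPMI-8226 in 40 of 50, where 10431 of 19775 genes were. This direction was shared by the other mitosis genes (median -0.16, 73 of 98 below 0) and by the DNA replication genes (median -0.47, 50 of 53 below 0).

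Read by array, with the mean of its line removed, the median member stood at -0.12 in uninfected RPMI-8226, -0.26 with NT, 0.24 with XBP1 and 0.13 with IRE1 shRNA. In JJN3 the medians were -0.03, -0.06, -0.06 and 0.14. The low point of RPMI-8226 was thus the NT array, the control of both shRNA comparisons. That array was the lowest of the 4 for 29 of 50 members, where 25.6% of all genes had their lowest value there. The XBP1 array of RPMI-8226 was the highest for 27 members, where 31.8% of all genes peaked there. In JJN3 the IRE1 array was the highest for 28 members against 27.1% of all genes, and the lowest was the XBP1 array for 18 members and the NT array for 17. The NT array of JJN3 was the highest for 1 member, SMC4.

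**Figure D2:**
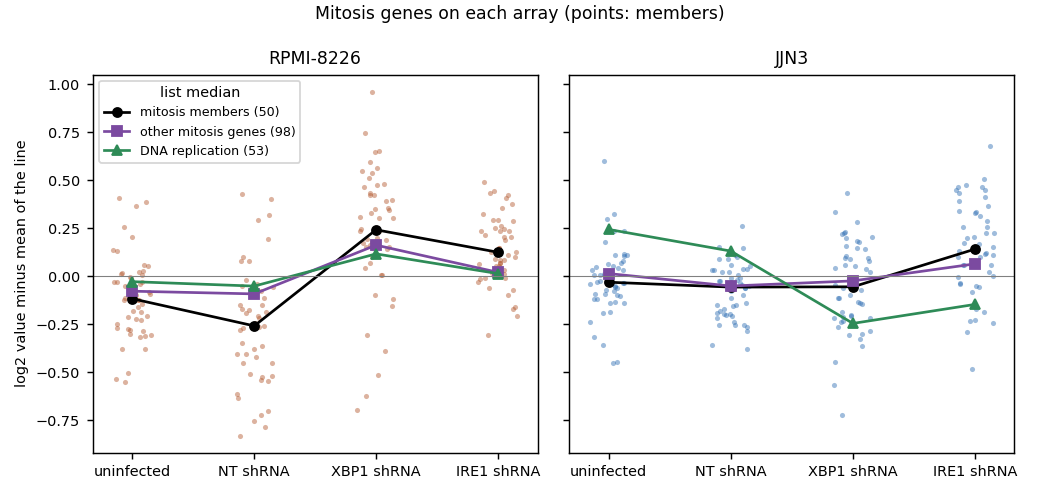
Log2 value minus the mean of the line on each array, RPMI-8226 on the left and JJN3 on the right. Points are the 50 members, and lines join the medians of the members, of 98 other mitosis genes and of 53 DNA replication genes. In RPMI-8226 the medians of all 3 lists take the same order of arrays, from NT through uninfected and IRE1 to XBP1 shRNA, while in JJN3 the DNA replication median falls below the line mean on both silenced arrays (-0.25 and -0.15).

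**Figure D3:**
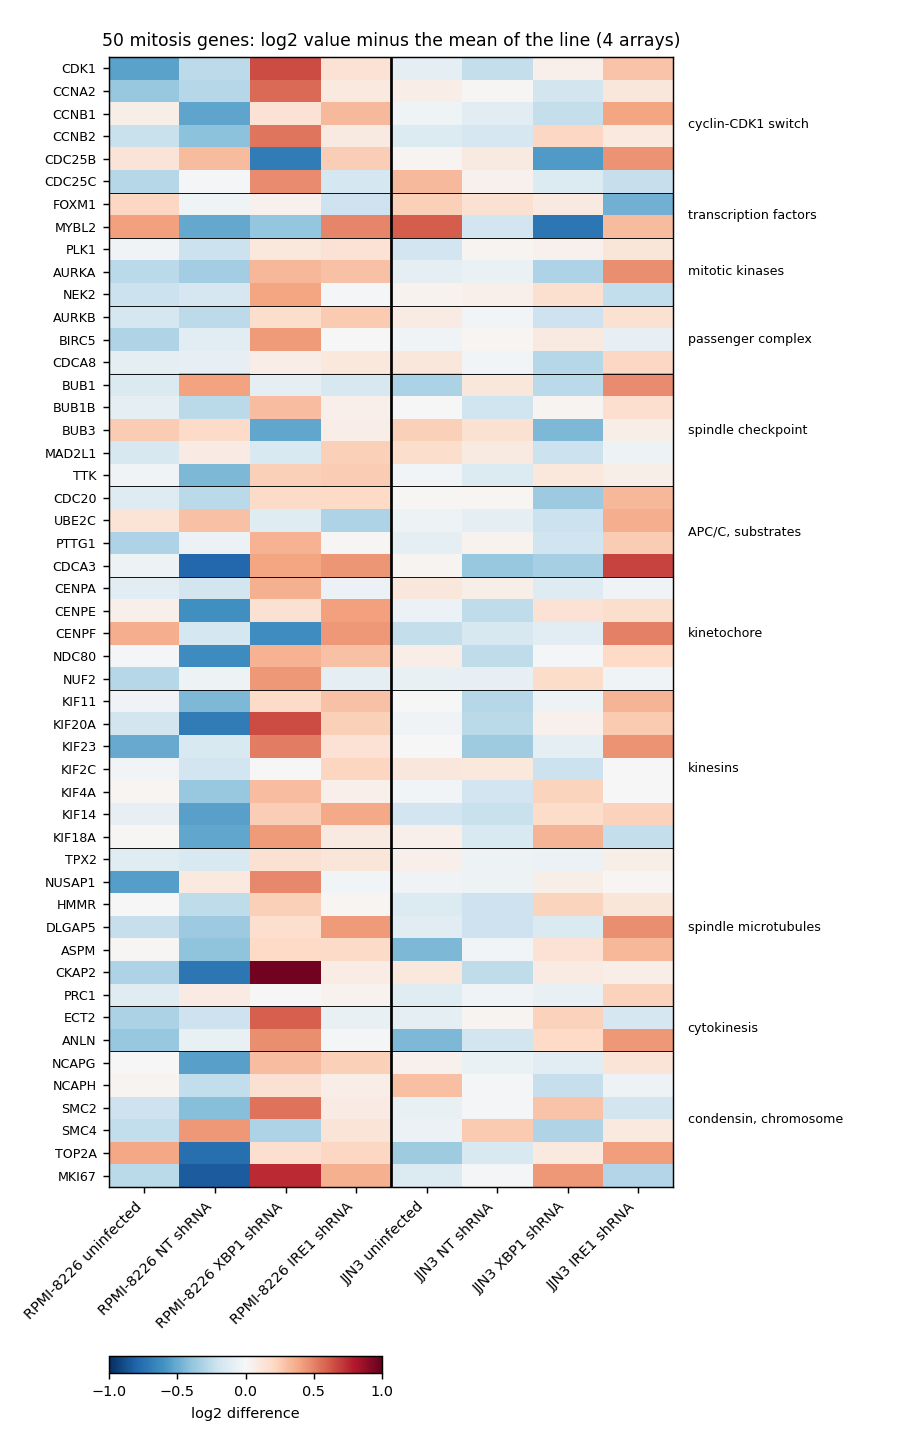
Log2 value minus the mean of the line for each member (rows, by role) on each array (columns); red is above and blue below the line mean. The RPMI-8226 NT column is blue for 42 of 50 members and the RPMI-8226 XBP1 column red for 42, and CDC25B, BUB3 and SMC4 are among the exceptions.

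By role, the cyclin-CDK1 switch had a median of 0.30 with XBP1 shRNA and 0.31 with IRE1 shRNA against NT, and 5 of its 6 genes were positive in each. CDK1, the mitotic kinase, stood at -1.29, -1.01, -0.11 and -0.61 in RPMI-8226 and at 0.24, 0.11, 0.40 and 0.63 in JJN3, in the order uninfected, NT, XBP1 and IRE1 shRNA. Both silenced arrays were above both control arrays in each line. Against NT shRNA CDK1 was 0.60 ± 0.23 higher with XBP1 shRNA (limma adjusted p = 0.234) and 0.47 ± 0.23 higher with IRE1 shRNA (0.536). CCNB1, its cyclin B partner, stood at -0.07, -0.66, 0.01 and 0.19 in RPMI-8226 and at 0.06, -0.01, -0.13 and 0.50 in JJN3, with the IRE1 array the highest in both lines. CCNB2 was 0.66 ± 0.17 higher with XBP1 shRNA (adjusted p = 0.0936), and its other 2 probe sets gave -0.40 and -0.10. CCNA2, the S and G2 cyclin, was at 0.84 in RPMI-8226 and -0.19 in JJN3 with XBP1 shRNA. CDC25C, a second CDK1-activating phosphatase, was at 0.49 in RPMI-8226 and -0.18 in JJN3 with XBP1 shRNA.

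FOXM1 stood at -0.06, -0.31, -0.23 and -0.48 in RPMI-8226 and at 0.78, 0.70, 0.64 and 0.06 in JJN3. The IRE1 array was the lowest in each line, and in JJN3 it was 0.63 below NT. FOXM1 and MYBL2 therefore took opposite signs with IRE1 against NT shRNA, at -0.40 and 0.75, and neither passed. The MYBL2 sign rests on that control. On the uninfected and IRE1 arrays MYBL2 stood at -0.05 and 0.03 in RPMI-8226 and at 1.30 and 1.01 in JJN3. Of the mitotic kinases, none of the 3 passed with either shRNA. PLK1, the Polo-like kinase of mitotic entry and centrosome maturation, stood at -0.14, -0.32, -0.0046 and 0.04 in RPMI-8226 and at -0.22, 0.0046, 0.02 and 0.09 in JJN3. AURKA, the spindle pole Aurora kinase, stood at -0.71, -0.79, -0.11 and -0.15 in RPMI-8226 and at 0.32, 0.35, 0.11 and 0.88 in JJN3. Against NT it was 0.22 ± 0.23 with XBP1 and 0.58 ± 0.23 with IRE1 shRNA. In RPMI-8226 both silenced arrays were above the controls for AURKA, while in JJN3 the XBP1 array was the lowest and the IRE1 array the highest. NEK2, a centrosomal kinase, was 0.34 ± 0.18 higher with XBP1 shRNA and at -0.07 ± 0.18 with IRE1 shRNA. The passenger complex genes AURKB, BIRC5 (survivin) and CDCA8 (borealin) had medians of 0.13 and 0.21 in those comparisons.

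Spindle checkpoint genes were split. With XBP1 shRNA their median was -0.27, with 2 of 5 positive, and with IRE1 shRNA it was 0.01. BUB3, which binds BUB1 and BUBR1 at kinetochores, stood at -0.01, -0.07, -0.78 and -0.20 in RPMI-8226 and at 0.69, 0.61, 0.01 and 0.52 in JJN3. The XBP1 array was the lowest of the 4 in both lines, at -0.65 ± 0.15 against NT at an adjusted p of 0.057, and BUB3 passed after cyclic loess scaling (fell by 0.70, adjusted p = 0.0483) or against uninfected cells. BUB1, the kinetochore kinase, stood at -0.67, -0.12, -0.63 and -0.69 in RPMI-8226 and at 0.12, 0.55, 0.18 and 0.91 in JJN3. MAD2L1, the mitotic checkpoint complex subunit, was at -0.27 ± 0.18 with XBP1 shRNA, where its other 2 probe sets gave 0.09 and 0.26. BUB1B (BUBR1) and TTK (MPS1) were at 0.40 ± 0.16 and 0.47 ± 0.17, and above 0 in both lines.

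Of the APC/C genes, CDC20, its activator, stood at -0.43, -0.57, -0.11 and -0.10 in RPMI-8226 and at 0.47, 0.49, 0.10 and 0.79 in JJN3, so the XBP1 array was above the controls in the first line and the lowest in the second. UBE2C, the E2 enzyme of the APC/C, was -0.27 ± 0.24 and -0.07 ± 0.24 with XBP1 and IRE1 shRNA. PTTG1 (securin) was 0.08 ± 0.21 and 0.14 ± 0.21. Array signals of PTTG1 may be shared with its near-identical copies, so they are uncertain. Among kinetochore genes the medians were 0.38 and 0.63. NDC80 was 0.62 ± 0.19 and 0.69 ± 0.19, and CENPE, the kinetochore kinesin, 0.58 ± 0.18 and 0.73 ± 0.18. CENPA, the centromeric histone, was 0.18 ± 0.20 and 0.01 ± 0.20, and NUF2 was 0.38 ± 0.16 with XBP1 shRNA and between -0.04 and 0.04 in the lines with IRE1 shRNA. CENPF was -0.20 ± 0.24 with XBP1 and 0.63 ± 0.24 with IRE1 shRNA. Its other 2 probe sets gave 0.24 and 0.36 with XBP1 shRNA, positive in both lines, and 0.03 and 0.57 with IRE1 shRNA, so its sign with XBP1 shRNA rests on the probe set used.

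The kinesins, motors that move and remodel spindle microtubules, had a median of 0.55 with either shRNA against NT. KIF20A (MKLP2), a kinesin of the central spindle, was 0.83 ± 0.23 and 0.73 ± 0.23 higher with XBP1 and IRE1 shRNA. KIF11 (Eg5), which pushes the spindle poles apart, was 0.44 ± 0.16 and 0.68 ± 0.16, KIF14 0.60 ± 0.17 and 0.68 ± 0.17, and KIF18A 0.72 ± 0.19 and 0.26 ± 0.19. KIF4A was 0.55 ± 0.15 and 0.31 ± 0.15, and KIF23 (MKLP1) 0.46 ± 0.25 and 0.55 ± 0.25. KIF2C, a microtubule depolymerase, was -0.06 ± 0.18 and 0.15 ± 0.18. None of the 7 passed in either comparison, with lowest adjusted p of 0.0885 and 0.176. Both comparisons share the NT arrays, on which all 7 kinesins were below the uninfected arrays in the fit. At the unadjusted level 5 of the 7 stood out with XBP1 and 3 with IRE1 shRNA.

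Spindle microtubule proteins had medians of 0.30 and 0.30. CKAP2 was at 1.01 ± 0.29 with XBP1 shRNA, by 1.68 in RPMI-8226 and 0.33 in JJN3, and 0.56 ± 0.29 with IRE1 shRNA. Its other 2 probe sets gave -0.01 and 0.03 with XBP1 shRNA over both lines, and -0.10 and 0.48 with IRE1 shRNA. The size of the CKAP2 difference with XBP1 shRNA thus rests on the probe set used. DLGAP5 (HURP) was 0.30 ± 0.17 and 0.73 ± 0.17, HMMR 0.46 ± 0.15 and 0.30 ± 0.15, and ASPM 0.39 ± 0.21 and 0.48 ± 0.21. NUSAP1 was 0.24 ± 0.22 and -0.03 ± 0.22. TPX2, the AURKA activator, and PRC1, the midzone bundler, were at 0.14 ± 0.16 and -0.06 ± 0.15 with XBP1 and at 0.19 ± 0.16 and 0.11 ± 0.15 with IRE1 shRNA. For cytokinesis, ECT2, the RhoA exchange factor, was 0.50 ± 0.19 with XBP1 and -0.03 ± 0.19 with IRE1 shRNA, and ANLN (anillin) 0.46 ± 0.19 and 0.34 ± 0.19. The condensin genes SMC2 and SMC4, partners in one complex, were at 0.64 ± 0.20 and -0.65 ± 0.16 with XBP1 shRNA (adjusted p = 0.145 and 0.0717), and the other 2 probe sets of SMC4 gave -0.12 and 0.24. NCAPG and NCAPH, further condensin subunits, were 0.40 ± 0.21 and 0.09 ± 0.19.

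TOP2A, the topoisomerase that untangles sister chromatids, stood at -0.23, -1.37, -0.45 and -0.41 in RPMI-8226 and at 0.23, 0.43, 0.68 and 0.999 in JJN3. In RPMI-8226 the NT array differed from the uninfected array by -1.14, so TOP2A was 0.92 higher with XBP1 shRNA than with NT and yet below the uninfected cells. MKI67, which encodes the Ki-67 proliferation antigen, stood at -1.56, -2.12, -0.54 and -0.93 in RPMI-8226 and at 0.70, 0.82, 1.26 and 0.54 in JJN3. It had the highest XBP1 difference of all members (1.01 ± 0.30, adjusted p = 0.125), at 1.58 in RPMI-8226 and 0.44 in JJN3. Its IRE1 difference was 1.19 in RPMI-8226 and -0.28 in JJN3.

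Members moved together to a limited degree over the 8 arrays after the line means were removed. The median Pearson r over 1225 pairs was 0.42, and 74.1% of pairs were above 0, as a description of arrays that share lines and a centring. The first principal component held 52.8% of the members' variance and the next 23.4%. The members most like the median of the others were KIF20A (r = 0.96), TPX2 (0.93) and NCAPG (0.91). BUB3 (-0.53), FOXM1 (-0.45), SMC4 (-0.41), UBE2C (-0.35) and CDC25B (-0.34) ran against it, and BUB1, MAD2L1 and CENPF were also below 0. MYBL2 had an r of 0.20. Outside the members, the genes closest to the median member were SPDL1 (Spindly, which recruits dynein to kinetochores; r = 0.98), RGS17 (0.98), LRRC3B (0.97), UBXN10 (0.97) and LINC02400 (0.97).

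The probe set chosen for a gene mattered for several of these differences. In 28 members with several probe sets, the XBP1 minus NT difference in RPMI-8226 ranged by more than 1 log2 unit in 6 (21.4%, against 8.6% of all genes with several probe sets) and in 0 of 28 in JJN3 (against 7.32%). The 6 were CCNB2 (-0.73 to 0.94), MKI67 (-0.07 to 1.58), CKAP2 (0.26 to 1.68), BIRC5 (-0.34 to 0.94), SMC4 (-0.74 to 0.36) and ECT2 (-0.11 to 0.89). Over both lines, 12 of the 28 had probe sets of both signs with XBP1 and 10 with IRE1 against NT shRNA, 11 with IRE1 against XBP1 shRNA and 16 with NT against no virus. In 4 of them (CCNB2, CDC25C, CENPF and MAD2L1) every other probe set was opposite in sign to the one used with XBP1 against NT shRNA. For RPMI-8226 alone, the 4 probe sets of CDK1 lay between 0.67 and 0.91 with XBP1 against NT shRNA. Those of JJN3 were smaller, between 0.0062 and 0.29. Of the 6 probe sets of BUB3, the one used gave -0.65 over both lines and was the lowest in each line. The 6 ranged from -0.71 to 0.19 in RPMI-8226 and from -0.60 to -0.0071 in JJN3. CDC25B and MYBL2 were each measured by 1 probe set. Over the 51 probe sets that did not represent a gene, the medians were 0.15 with XBP1 and 0.27 with IRE1 shRNA, where those used gave 0.32 and 0.31.

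**Figure D4:**
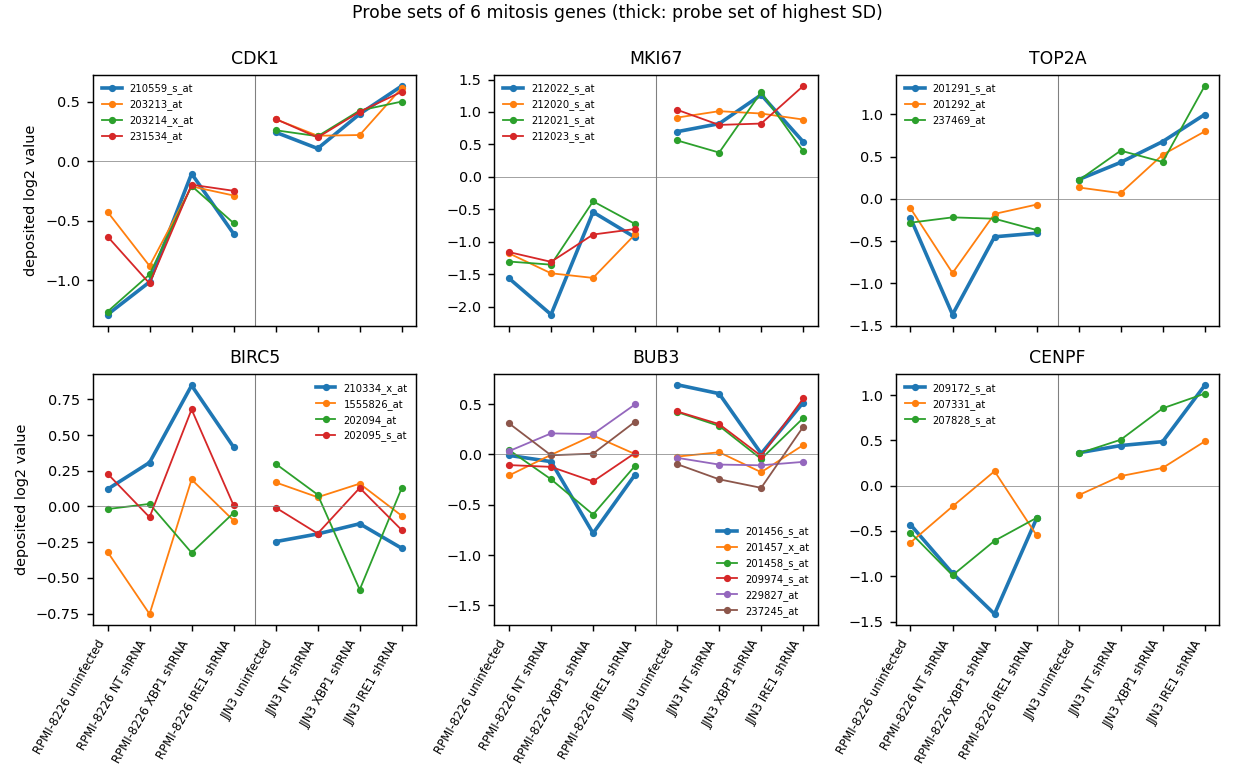
Deposited log2 value of every probe set of CDK1, MKI67, TOP2A, BIRC5, BUB3 and CENPF on the 4 RPMI-8226 arrays (left of the grey line) and the 4 JJN3 arrays; the thick line is the probe set of highest SD, used in the tests. The 4 CDK1 probe sets run together, whereas those of BIRC5 and BUB3 part on the XBP1 shRNA arrays.

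More mitosis genes passed between the lines than in any shRNA comparison, and so did more of all genes. Of 19775 genes, 13632 passed between the lines. With XBP1 and IRE1 against NT shRNA 436 and 12 did, and between the shRNAs 657. The line comparison sets 4 arrays against 4, where those of the shRNAs set 2 against 2. In JJN3, 37 of 50 members were higher and 3 lower than in RPMI-8226 (limma, treatment as a block, adjusted p below 0.05), where 25.4% of all genes were higher and 43.5% lower. In this fit the 4 differently treated arrays of a line stand as its replicates. Its p-values therefore measure how evenly a difference holds over the treatments, and not the spread between cultures or between further lines. The median member was 0.98 higher, while the median over all genes was -0.23. By treatment the member medians were 1.05 uninfected, 1.07 with NT, 0.73 with XBP1 and 1.02 with IRE1 shRNA. The 4 JJN3 arrays were all above the 4 RPMI-8226 arrays for 33 members, where 21.2% of all genes were. They were all below for 2 members, PTTG1 and BIRC5, where 37.5% of all genes were, and they overlapped for 15. The choice of the probe set with the highest SD enlarges this comparison: over the other 51 probe sets of the members the median was 0.42, and 36 of them had the sign of the one used. After cyclic loess scaling the median over all genes was -0.11 and 39 members were higher and 2 lower, with a median of 0.92.

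UBE2C had the largest difference, at -2.36, -2.20, -2.61 and -2.80 in RPMI-8226 and 2.37, 2.32, 2.20 and 2.79 in JJN3. It was 4.91 ± 0.17 higher in JJN3 (adjusted p = 2.53e-08) and did not overlap between the lines. ANLN followed at 2.88 ± 0.14, CENPE at 2.72 ± 0.13, ASPM, the spindle pole protein, at 2.42 ± 0.15 and KIF23 at 2.37 ± 0.18. MKI67 was 2.12 ± 0.21, KIF14 1.89 ± 0.12, TTK 1.74 ± 0.12 and KIF18A 1.56 ± 0.13 higher. NDC80 (1.43 ± 0.14), CENPF (1.39 ± 0.17) and SMC2 (1.35 ± 0.14) completed the 12 largest. The adjusted p of these ran from 2.53e-08 to 8.11e-05. The genes lower in JJN3 were PTTG1 (-0.92 ± 0.15, adjusted p = 0.000545), BIRC5 (-0.64 ± 0.13, 0.00193) and NCAPH (-0.40 ± 0.14, 0.0256). BIRC5 rested on 1 probe set, and its other 3 gave -0.27 to 0.33.

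All 7 kinesins, all 7 spindle microtubule proteins, all 5 checkpoint genes and both transcription factors were higher in JJN3 in this fit. Of the kinetochore genes 4 of 5 were, CENPA being the exception at -0.07 ± 0.14. The cyclin-CDK1 switch and the kinases stood apart: CDK1 (1.10 ± 0.16) and CDC25B (0.50 ± 0.12) were higher, but CCNA2 (0.23 ± 0.18), CCNB1 (0.24 ± 0.14), CCNB2 (0.17 ± 0.12) and CDC25C (-0.28 ± 0.18) did not pass. Of the kinases AURKA was higher (0.86 ± 0.16), while PLK1 (0.08 ± 0.11) and NEK2 (0.25 ± 0.13) did not pass. AURKB (0.01 ± 0.13), CDCA8 (0.19 ± 0.12) and ECT2 (0.31 ± 0.13) did not pass either. FOXM1 was 0.82 ± 0.12, MYBL2 1.16 ± 0.14, TOP2A 1.20 ± 0.19 and CDC20 0.77 ± 0.15 higher. NCAPG (1.16 ± 0.15), SMC4 (0.84 ± 0.11) and CDCA3 (0.996 ± 0.18) were higher as well. BUB1 was 0.97 ± 0.16 higher by the probe set used, and its other 4 probe sets gave -0.19 to -0.02. BUB3 was 0.72 ± 0.10 higher, and its other 5 gave -0.31 to 0.48. CKAP2 (0.74 ± 0.21) turned to -0.18 after cyclic loess, and with the probe set of highest mean CKAP2, BUB1 and MAD2L1 turned to -0.06, -0.11 and -0.14, so the direction of these 3 depends on the processing. The actin 3′ minus 5′ probe set difference, a sign of RNA quality, ran from -0.61 to -0.43 over the RPMI-8226 arrays and from 0.13 to 0.42 over those of JJN3. The same difference for GAPDH overlapped between the lines. It ran from -0.08 to 0.06 in RPMI-8226 and from 0.0037 to 0.05 in JJN3. The lines also differed in the marker genes. Of the 10 plasma cell markers 5 were higher and 4 lower in JJN3, where 25.4% and 43.5% of all genes were. The higher ones included IRF4 (1.70 ± 0.15), PRDM1 (1.67 ± 0.14) and POU2AF1 (1.43 ± 0.12). Among the lower were CD38 (-4.72 ± 0.22), MZB1 (-2.22 ± 0.13) and JCHAIN, the immunoglobulin J chain (-2.12 ± 0.14). Of the 13 markers of other cell types 1 was higher, CD247 (the CD3 zeta chain of T and NK cells) at 6.46 ± 0.14, and 5 were lower, from -0.63 to -0.39. The part of the actin signal and of these markers in the mitosis genes' line differences was not tested.

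**Figure D5:**
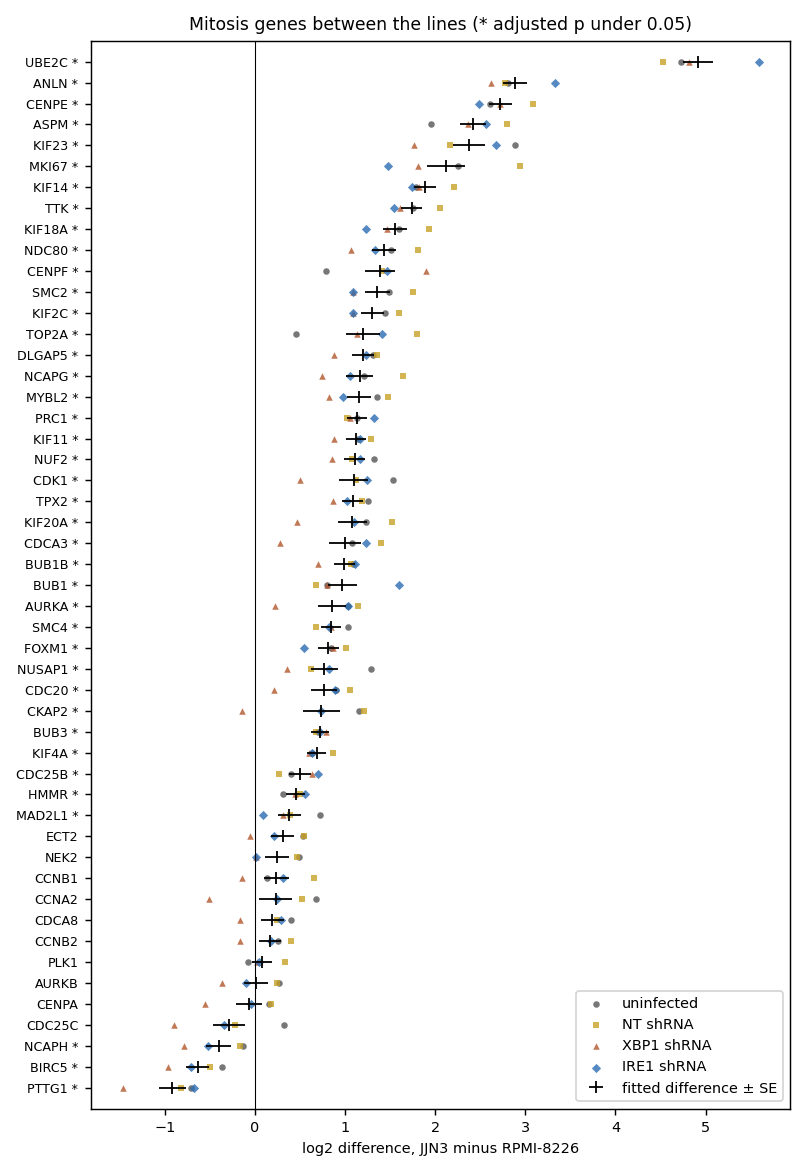
JJN3 minus RPMI-8226 log2 difference of each member, 1 point for each treatment (1 array minus 1 array), with the fitted difference and its SE in black; an asterisk marks an adjusted p below 0.05. UBE2C lies at 4.91, far above ANLN at 2.88, and PTTG1, BIRC5 and NCAPH carry the asterisks below 0.

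Genes of neighbouring lists were set beside the members. Of 98 other mitosis genes, 3 rose and 1 fell with XBP1 against NT shRNA (median 0.15, 65 of 98 positive), where 2.2% of all genes passed. UBE2S, an APC/C E2 enzyme, rose by 0.96 ± 0.18 (adjusted p = 0.037), CDC23, an APC/C subunit, by 0.93 ± 0.18 (0.0411) and DEPDC1 by 0.83 ± 0.17 (0.0437). ENSA, an inhibitor of the phosphatase PP2A-B55 in mitosis, fell by 0.91 ± 0.17 (0.0392). With IRE1 against XBP1 shRNA the kinetochore gene CENPU was higher (0.81 ± 0.16), and CENPQ (-1.19 ± 0.18), DEPDC1 (-0.89 ± 0.17) and CDC23 (-0.88 ± 0.18) were lower. The share of all genes past the threshold there was 3.32%, so these calls are close to the background. With IRE1 against NT shRNA 0 of the 98 passed, and 16 stood out at an unadjusted p below 0.05 in limma. At that level 15.8% of all genes stood out with XBP1 and 10.6% with IRE1 shRNA against NT. The DNA replication genes had a median of -0.10 with XBP1 (18 of 53 positive) and -0.08 with IRE1 shRNA, and 0 of 53 passed (11 and 6 at an unadjusted p below 0.05 in limma). With XBP1 shRNA that median was 0.19 in RPMI-8226, the sign of the members there, and -0.34 in JJN3. Of 17 cell cycle brakes, 0 passed against NT with either shRNA (5 and 2 unadjusted), and BTG1, an antiproliferative gene, was 1.17 ± 0.25 higher with IRE1 than with XBP1 shRNA.

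Of 10 plasma cell markers, PRDM1 (Blimp-1) and IRF4, regulators of plasma cell identity, fell with XBP1 against NT shRNA, by 1.23 ± 0.19 and 1.06 ± 0.21 (adjusted p = 0.0219 and 0.0436). The median of the 10 was -0.67, and 2 of 10 were positive. The median by array with the line mean removed was -0.35 and -0.37 on the XBP1 arrays of RPMI-8226 and JJN3. The 10 include XBP1 itself, the target of this shRNA, so these summaries are not independent of the silencing. PRDM1, IRF4 and POU2AF1 were higher with IRE1 than with XBP1 shRNA (0.96 ± 0.19, 1.18 ± 0.21 and 0.82 ± 0.16). Of 13 measured markers of T, NK, myeloid, stromal, epithelial and erythroid cells, 0 passed with XBP1 or IRE1 against NT shRNA (1 and 0 at an unadjusted p below 0.05 in limma). Their median by array, with the line mean removed, lay between -0.09 and 0.13. Whether these changes have a part in those of the mitosis genes was not tested. Between the lines, 57 of the 98 other mitosis genes were higher in JJN3 and 18 lower (median 0.46), as were 26 and 6 of 53 DNA replication genes (0.21). The shares over all genes were 25.4% higher and 43.5% lower. Of the other mitosis genes, KNL1, a kinetochore scaffold, was 3.25 ± 0.16 higher in JJN3.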

How the data were processed

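Total RNA from 8 cultures (2 myeloma lines by 4 treatments) was hybridised to Affymetrix arrays. The deposited log2 values were made by the authors with RMA (background adjustment, quantile normalisation and summary per probe set), per the submitters' processing notes, which give no version; log base and centring are not given in the sources used here. The median over the 8 arrays was 0 for each of 54675 probe sets, within 1e-05, and values lay between -5.73 and 5.45. Base 2 was taken because RMA returns it. No pair of 28 array pairs was identical (0 pairs).

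Probe sets with 1 symbol (41097; 1801 had several and 11777 were not listed) covered 19775 genes; 41043 matched RefSeq by Entrez identifier, 54 did not, and 0 symbols changed. A gene was represented by its probe set of highest SD. The members, gene lists and tests were chosen with earlier results of these data known. The tests used limma 3.58.1 under R 4.3.3 (lmFit, eBayes, two-sided, Benjamini-Hochberg over all genes, threshold 0.05) on all 8 arrays, with the line as a block, or the treatment in the line comparison. The line pairs the arrays because each treatment was given to the same 2 lines. The text names every member past the threshold (at most 12), the 3 highest and 3 lowest, fixed genes such as CDK1, and up to 3 genes a direction from other lists; others complete the roles. Errors are SE. The fit was tested on simulated data. Alternatives covered the probe set, scaling, an SD filter, the variance prior, the block, the control and each array left out. Where 2 treatments are compared, leaving out either array of a treatment outside the comparison gives the same fit. The same holds for either array of any treatment in the line comparison. Such identical fits are counted separately among the alternatives.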

Additional observations from a re-analysis of the deposited data

How the results depend on the processing

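XBP1 against NT shRNA called 1 member. It called 0 after quantile normalisation, with the genes of low SD dropped, with no replicate block or with only the 4 arrays compared, 2 after cyclic loess (CDC25B and BUB3) and 2 with uninfected cells as control. Leaving out an array gave 0 to 3, the 3 being CDCA3, KIF20A and CKAP2 without the JJN3 XBP1 array. CDC25B remained past the threshold in 5 of 18 alternatives. IRE1 against NT shRNA called 0 to 1 member when an array was left out, with medians of 0.19 to 0.42. IRE1 against XBP1 shRNA called 2 members, and 0 after quantile normalisation, 0 with no replicate block, 3 with only the 4 arrays compared (CENPF gained) and 0 to 2 with an array left out; its median then ran from -0.13 to 0.25. CDC25B kept that call in 12 of 17 alternatives and MYBL2 in 10 of 17. The NT minus uninfected median ran from -0.23 to 0.0012. For JJN3 against RPMI-8226 the median was 0.78 with the probe set of highest mean, and 35 to 42 members were called over the alternatives; BUB1 (-0.11), MAD2L1 (-0.14) and CKAP2 (-0.064) turned negative with that probe set, and CKAP2 (-0.18) after cyclic loess. Without the pairing by line, 0 of 19775 genes were called with XBP1 against NT shRNA; the line then counts as spread within a treatment. Of the medians and counts, 204 stayed within the spread (1.5 times for counts) and 30 moved. The spread was the SD of the member medians over lines or treatments. For XBP1 against NT shRNA it was 0.34, above the median of 0.32, so even a fall to 0 counted as within it. Counts that were 0 in both fits are also among the 204, so that number does not measure stability. The causes were not tested. The number of arrays, 2 a treatment, limits what could be detected.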
